A study of Homo sapiens with 2 samples.

Results

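Aldehyde dehydrogenases, in general, oxidise aldehydes to carboxylic acids. The 10 genes described here are ALDH1A1, ALDH1A3, ALDH1B1, ALDH2, ALDH3A1, ALDH3A2, ALDH3B1, ALDH7A1, ALDH9A1 and ALDH18A1, out of 60527 genes in the table. They were chosen by gene symbol, as members of the family of 19 genes, with the FPKM values of the same libraries in view, so their levels and differences are given as a description and without a test. The study sequenced total RNA of 2 cultures of SK-MEL-2, a line derived from a human melanoma. One culture received DMSO, the solvent, and the other JNJ-7706621 at 1.75 µM for 48 h. The treatment label of the DMSO culture gives no time, and 48 h was taken for it too. The compound inhibits cyclin-dependent kinases and Aurora kinases, and the labels name no other agent. Each group is 1 library here. The deposited table has 2 further columns, named as a second control and a second JNJ column, that match no sample described for this work and were not used, so the spread between cultures was not measured. Every interval in parentheses is a 95% interval for counting error alone.

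Most enzymes of the family use NAD or NADP to turn a reactive aldehyde into an acid that the cell can use or excrete. The ALDH1A enzymes make retinoic acid, the ligand of the retinoic acid receptors, from retinal. Their activity is also widely used as a mark of stem-like cells in tumours, melanoma included. Other members act in mitochondria on acetaldehyde, at membranes on aldehydes of fats, or in the metabolism of amino acids.

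Depth was alike, at 23377161 reads with DMSO and 22817719 with the inhibitor. The label of a melanoma line and the marker genes disagreed in both libraries. Of 7 melanocyte markers, 2 reached a mean of 1 FPKM (PMEL, at 2.00 and 3.71, and MITF, at 2.65 and 2.27). MLANA had 14 reads in DMSO and 13 in JNJ-7706621, and TYRP1 had 5 and 7. TYR had 0 reads in both libraries, and SOX10 and DCT had 1 read in DMSO and 0 in JNJ-7706621. All 5 epithelial markers were present in both, from KRT19 at 19.2 and 26.7 FPKM to KRT18 at 1117 and 1123 FPKM. Between them, CDH1 stood at 49.8 and 67.8 FPKM, EPCAM at 55.7 and 59.4 FPKM, and KRT8 at 720 and 703 FPKM. The levels below are therefore those of the cultures labelled SK-MEL-2, whose tissue of origin was not tested.

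The family was dominated by a pair of genes in both libraries. ALDH1A1, the cytosolic retinal dehydrogenase, stood at 1196 FPKM (1188 to 1205) with DMSO and 994 FPKM (986 to 1001) with the inhibitor. FPKM is reads per kilobase of exon and per 1000000 reads, so that genes of different length can be set side by side. By this measure ALDH1A1 ranked 10 among protein-coding genes in DMSO and 14 in JNJ-7706621, and held 79417 and 64388 reads. ALDH3A1, which oxidises aromatic aldehydes and products of lipid peroxidation and is abundant in the cornea and stomach, stood at 353 FPKM (349 to 357) with DMSO and 695 FPKM (689 to 700) with the inhibitor, at ranks 68 and 23. The summed level of the 10 genes was 1743 FPKM with DMSO and 1854 FPKM with the inhibitor, and their reads made up 0.610% and 0.657% of the library totals. ALDH1A1 supplied 68.6% of the summed FPKM with DMSO and 53.6% in JNJ-7706621, and ALDH3A1 supplied 20.3% and 37.5%. All the others together stood at 194 and 166 FPKM.

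Below this pair the levels in DMSO ran from 63.6 FPKM for ALDH3B1 down to 2.10 FPKM for ALDH1A3. ALDH18A1 stood at 45.2 FPKM, ALDH2 at 24.2, ALDH9A1 at 19.6, ALDH3A2 at 17.6, ALDH1B1 at 15.4 and ALDH7A1 at 6.12 FPKM. In JNJ-7706621 the order below the pair was ALDH18A1 (42.6 FPKM), ALDH3B1 (35.1), ALDH1B1 (25.3), ALDH9A1 (21.5), ALDH2 (19.3), ALDH3A2 (11.9), ALDH7A1 (6.79) and ALDH1A3 (3.38). In neither library did the counting intervals of neighbours in the order overlap. The highest member stood 569 times above the lowest in DMSO and 294 times in JNJ-7706621. ALDH3B1 stood above ALDH18A1 with DMSO and below it with the inhibitor, and ALDH1B1 took place 8 and place 5.

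**Figure D1:**
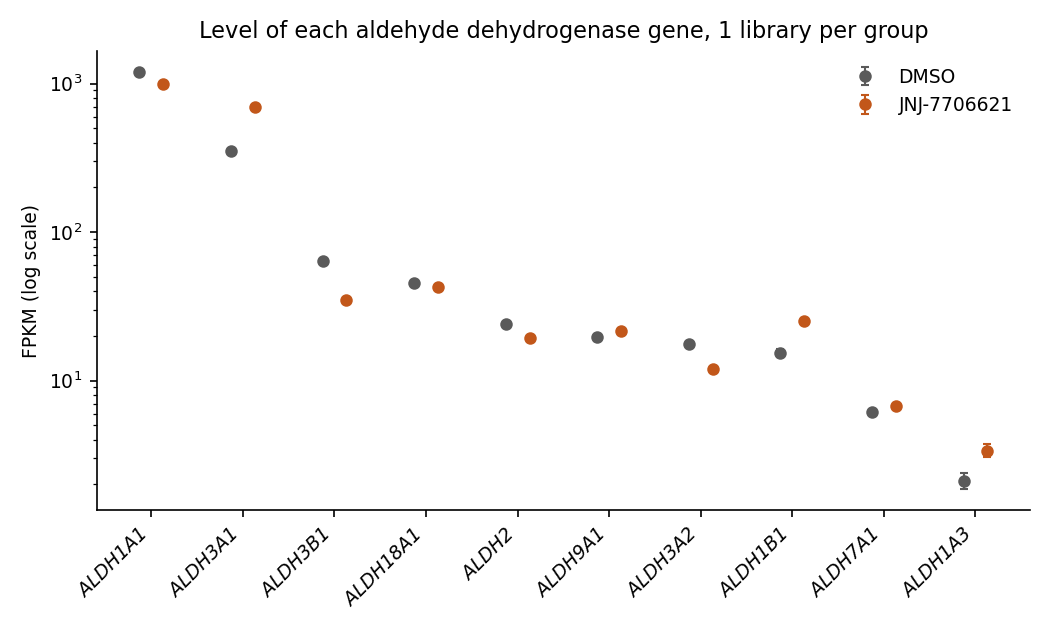
Level in FPKM (log scale) of the 10 aldehyde dehydrogenase genes, ordered by the DMSO library, with 1 point for each library and bars for the 95% counting interval, which are smaller than most points. ALDH1A1 and ALDH3A1 lie above the other members in both libraries, and the points of ALDH3A1 (353 and 695 FPKM) and ALDH3B1 (63.6 and 35.1 FPKM) are the farthest apart in proportion.

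The order depended on the length by which reads were divided. For 9 of the 10 members, the length at which the deposited values gave whole reads was 0.924 to 1.00 times the merged length of all exons in GENCODE 29, which for some genes is far longer than the mRNA. For ALDH7A1 the length was 17914 bases, 7.16 times its longest coding transcript of 2501 bases in GENCODE 29. For ALDH3A2 it was 15331 bases, 4.00 times the coding transcript of 3828 bases and 2.37 times the merged exons of GENCODE 29. For ALDH1B1 and ALDH2 the factor was 1.02. With the reads divided by the coding transcript, a scale chosen after the values were seen, ALDH7A1 stood at 43.9 in DMSO and 48.6 in JNJ-7706621, and ALDH3A2 at 70.6 and 47.7 reads per kilobase and 1000000 reads. On that scale ALDH3A1 and ALDH1A1 stood at 711 and 1612 in DMSO but at 1399 and 1339 in JNJ-7706621, where ALDH3A1 came first. ALDH3B1 stood above ALDH18A1 in both libraries on that scale (151 against 50.6 and 83.6 against 47.7), and ALDH1B1 took places 9 and 8. The reads of ALDH3A2, its counting intervals and its level per coding transcript rest on the length of 15331 bases, and would differ if the authors used another length. The ratios themselves do not depend on this length.

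**Figure D2:**
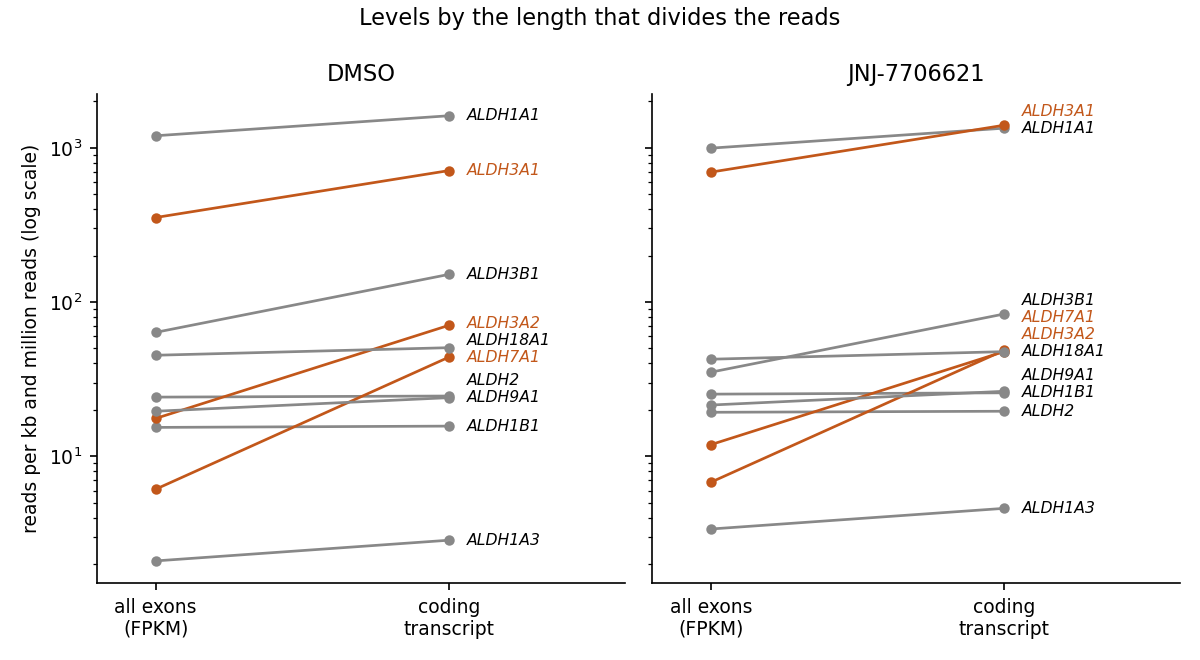
Levels of the 10 genes in the DMSO library (left) and the JNJ-7706621 library (right), as deposited over all exons (FPKM) and per kilobase of the longest coding transcript, on a log scale, with 1 line for each gene. Coloured lines mark ALDH7A1 and ALDH3A2, which climb past other members, and ALDH3A1, which passes ALDH1A1 in JNJ-7706621 (1399 against 1339).

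The promoter of the most abundant member and those of the members with the highest and the lowest ratio among the genes in the promoter table are shown here, because they carry the extremes of level and of difference. Of the 10 genes, 8 were matched by symbol to RefSeq promoters on GRCh38.p14, and ALDH2 and ALDH3A1 were not. Each line gives bases before the start of transcription, 5′ to 3′ on the strand of the gene, cut where a GENCODE exon of the gene begins. The windows are chr9:72953057-72953303 (minus strand) for ALDH1A1, chr9:38392452-38392663 (plus) for ALDH1B1, and chr11:68008297-68008546 and chr11:68010077-68010322 (plus) for 2 starts of ALDH3B1. Capitals mark the motifs named in the next paragraph, on either strand.
ALDH1A1: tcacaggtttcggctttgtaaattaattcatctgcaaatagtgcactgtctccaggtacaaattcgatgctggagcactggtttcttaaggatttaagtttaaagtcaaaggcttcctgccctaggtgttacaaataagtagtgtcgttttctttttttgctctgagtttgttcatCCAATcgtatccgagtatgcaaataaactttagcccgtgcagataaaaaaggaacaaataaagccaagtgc
ALDH1B1: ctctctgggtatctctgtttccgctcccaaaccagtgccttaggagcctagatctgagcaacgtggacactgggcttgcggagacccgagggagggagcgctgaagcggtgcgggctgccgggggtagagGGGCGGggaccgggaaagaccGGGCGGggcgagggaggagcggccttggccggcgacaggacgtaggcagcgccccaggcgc
ALDH3B1 first start: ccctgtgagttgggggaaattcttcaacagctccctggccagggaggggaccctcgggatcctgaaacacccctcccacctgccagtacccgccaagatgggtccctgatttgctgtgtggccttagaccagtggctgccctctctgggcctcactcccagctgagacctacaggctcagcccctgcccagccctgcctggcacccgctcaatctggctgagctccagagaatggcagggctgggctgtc
ALDH3B1 second start: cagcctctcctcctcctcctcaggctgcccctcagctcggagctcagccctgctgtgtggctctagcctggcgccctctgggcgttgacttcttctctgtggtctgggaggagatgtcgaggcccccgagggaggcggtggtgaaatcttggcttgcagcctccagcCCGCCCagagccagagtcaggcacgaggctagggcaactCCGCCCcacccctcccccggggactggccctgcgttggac

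The 250 bases before the start of ALDH1A1 held 38.4% G and C, against a median of 58.0% over all 35116 promoters in the table, of which 10.8% were as low. Over the full 250 bases, exon bases that are not shown included, ALDH1B1 and both ALDH3B1 starts held 70.4%, 63.6% and 66.8%. The letters CCAAT, known from the CCAAT box, were found in 5 of the 8 matched genes, ALDH1A1 and ALDH1B1 among them (in ALDH1B1 within exon bases that are not shown), and in 32.0% of all promoters. The GC box GGGCGG was found in 6 of 8 genes against 42.6% of all promoters, and the TATA box TATAAA in 0 of 8 against 10.7%. The core GCGTG, to which the aryl hydrocarbon receptor AHR is known to bind, was found in 2 of 8 genes (32.2% of all promoters), and TGACNNNGC, the core known for the antioxidant factor NRF2, in 0 of 8 (10.9%). Matches were counted on both strands, in the full 250 bases, and a gene with several starts counted once if any start held the motif, which gives it more chances than a single promoter. None of these motifs contains another.

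The comparison of the libraries asked how these genes differed in the culture given the kinase inhibitor. ALDH3A1, ALDH1B1 and ALDH1A3 were higher in JNJ-7706621, ALDH3B1, ALDH3A2, ALDH2 and ALDH1A1 were lower, and ALDH7A1, ALDH9A1 and ALDH18A1 had ratios from 0.944 to 1.11. The difference used is log2(FPKM + 1) in JNJ-7706621 minus that in DMSO, and a gene with a mean of at least 1 FPKM was called 2-fold higher or lower at 1 or more in size. All 10 members passed the filter, and 0 were called in either direction. Over all 13241 genes that passed, 2.39% were called higher and 1.36% lower. The differences are close to log2 ratios for members well above the pseudocount, which ALDH1A3 is not. In bulk RNA, fewer cells that express a gene and less RNA per cell cannot be told apart.

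Among the enzymes that make retinoic acid, the members went both ways. ALDH1A1 (chromosome 9, 72900662 to 73080442, minus strand) had a ratio of 0.831 (0.822 to 0.839) between JNJ-7706621 and DMSO and a log2 difference of -0.27. Its DMSO level was thus the higher, while its reads were the most numerous of the family in both libraries. ALDH1A3 (chromosome 15, 100877714 to 100916626, plus strand), the other retinal dehydrogenase here, stood at 2.10 FPKM (1.85 to 2.37) with DMSO and 3.38 FPKM (3.07 to 3.73) with the inhibitor, giving a ratio of 1.61 (1.38 to 1.89) on 262 and 412 reads. Exons of other genes, the antisense gene AC015712.2 among them, overlap 28.6% of its exon length, and no source used here states whether reads were counted by strand, so its value is uncertain. The third gene of this group, ALDH1A2, had 4 reads in DMSO and 1 in JNJ-7706621.

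The mitochondrial enzymes that act on acetaldehyde and similar small aldehydes also differed in sign. ALDH1B1 (chromosome 9, 38392664 to 38398661, plus strand) stood at 15.4 FPKM (14.5 to 16.3) with DMSO and 25.3 FPKM (24.2 to 26.5) with the inhibitor, giving a ratio of 1.65 (1.53 to 1.77). ALDH2 (chromosome 12, 111766887 to 111817529, plus strand), the main enzyme of acetaldehyde removal after alcohol, stood at 24.2 and 19.3 FPKM, giving a ratio of 0.799 (0.768 to 0.832). ALDH2 was above ALDH1B1 in DMSO and below it in JNJ-7706621. Exons of AC002996.1 on the same strand overlap 7.00% of the exon length of ALDH2.

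The ALDH3 group held the largest differences in each direction. ALDH3A1 (chromosome 17, 19737984 to 19748943, minus strand) had 32010 reads in DMSO and 61459 in JNJ-7706621, giving a ratio of 1.97 (1.94 to 1.99) and a log2 difference of 0.97, just short of the rule of size. Of all 13241 genes, 2.61% had a difference at least as high. The antisense gene AC005722.3 overlaps 2.5% of its exon length. ALDH3B1 (chromosome 11, 68008578 to 68029282, plus strand), which oxidises lipid aldehydes at membranes, stood at 63.6 FPKM (62.4 to 64.9) with DMSO and 35.1 FPKM (34.2 to 36.1) with the inhibitor, giving a ratio of 0.552 (0.534 to 0.571). Its log2 difference of -0.84 was matched or passed by 2.36% of all genes. ALDH3A2 (chromosome 17, 19648136 to 19677598, plus strand), the fatty aldehyde dehydrogenase that is deficient in Sjögren-Larsson syndrome, stood at 17.6 FPKM (17.2 to 18.1) and 11.9 FPKM (11.6 to 12.3), giving a ratio of 0.676 (0.649 to 0.703). ALDH3A1 and ALDH3A2 lie 60385 bases apart, with SLC47A2 between them, and their ratios lay on opposite sides of 1. ALDH3B2, the close relative of ALDH3B1, had 2 reads in each library.

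The members of amino acid and carnitine metabolism differed little. ALDH7A1 (chromosome 5, 126531200 to 126595418, minus strand), which acts in the breakdown of lysine, stood at 6.12 FPKM (5.89 to 6.36) and 6.79 FPKM (6.54 to 7.05), with a ratio of 1.11 (1.05 to 1.17). ALDH9A1 (chromosome 1, 165662216 to 165698863, minus strand), which acts in carnitine synthesis and on aldehydes of amines, stood at 19.6 FPKM (18.6 to 20.6) and 21.5 FPKM (20.4 to 22.5), with a ratio of 1.10 (1.02 to 1.18). ALDH18A1 (chromosome 10, 95605929 to 95656706, minus strand), which makes the precursor of proline and ornithine by reducing glutamate, stood at 45.2 FPKM (43.8 to 46.6) and 42.6 FPKM (41.3 to 44.0), with a ratio of 0.944 (0.902 to 0.987). The level intervals of the libraries did not overlap for ALDH7A1, and they overlapped for ALDH9A1 and ALDH18A1.

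The counting interval of the ratio lay above 1 for 5 of the 10 members and below 1 for the other 5. Among the 8474 genes with at least as many reads as ALDH1A3, the member with the fewest, the interval lay above 1 for 37.0% and below 1 for 38.1%. Counting error alone was thus passed by most of these genes, and without replicates that says nothing about the treatment. The median log2 difference of the members was 0.02, against -0.0032 over all genes. A difference of at least 0.5 in size was found for 4 of 10 members and for 20.8% of all genes. ALDH1A3 fell just under that size and stood at 0.57 to 0.66 with the other pseudocounts and after rescaling. The transcripts of ALDH1A1 and ALDH18A1 share no stretch of 50 bases with transcripts of other genes in GENCODE 29, and the shared part of the transcripts was 1.25% for ALDH3A1 and 1.3% for ALDH3B1. It was 24.3% for ALDH1A3 and 9.45% for ALDH2, mainly with the genes that overlap them.

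**Figure D3:**
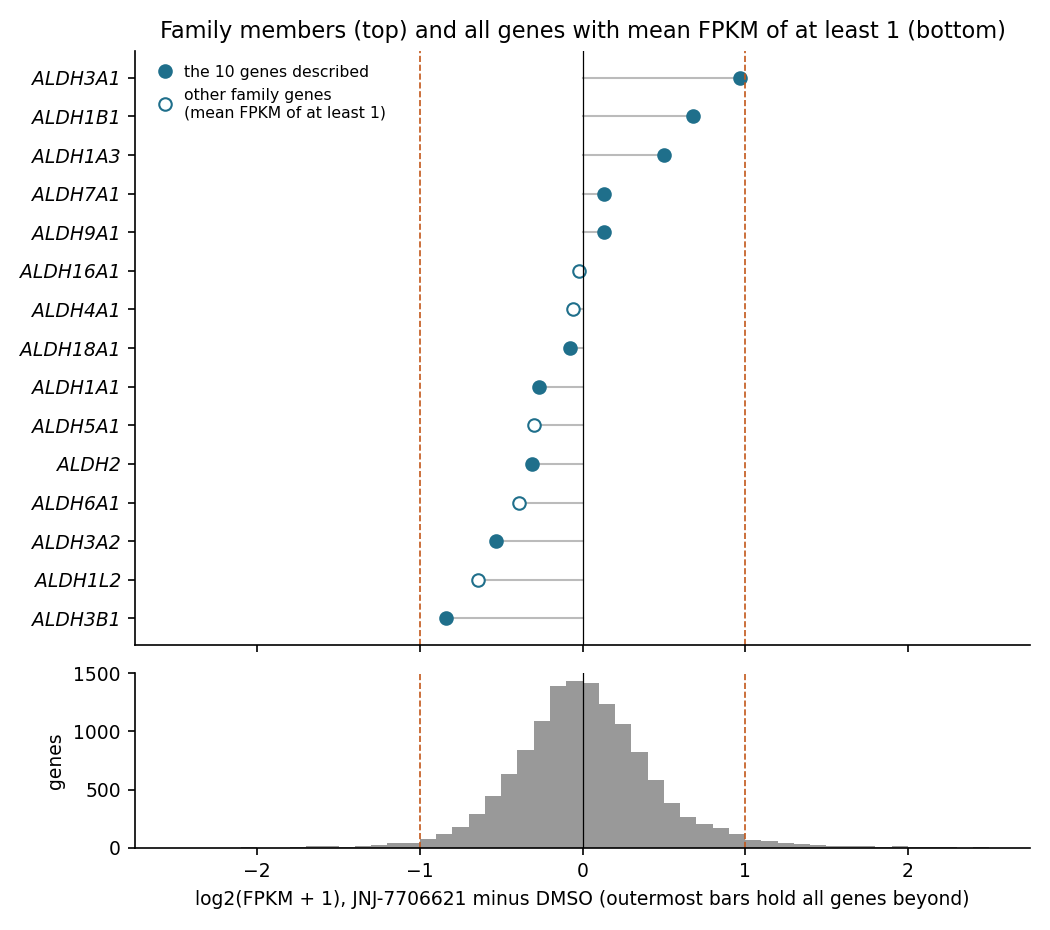
Difference in log2(FPKM + 1), JNJ-7706621 minus DMSO, of the 10 genes (filled) and of 5 other family genes with a mean of at least 1 FPKM (open), above a histogram of all 13241 genes that passed the same filter. Dashed lines mark the rule of size at -1 and 1, and ALDH3A1 (0.97) and ALDH3B1 (-0.84) come nearest to them.

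The remaining 9 genes of the family stood below most members, but not below all. With DMSO ALDH1L2 (8.93 FPKM) was above ALDH7A1 (6.12). ALDH4A1 (3.44), ALDH5A1 (4.34), ALDH6A1 (4.28) and ALDH16A1 (4.03) were above ALDH1A3 (2.10). With the inhibitor ALDH1L2 (5.37) and ALDH16A1 (3.95) were above ALDH1A3 (3.38), and ALDH4A1 (3.26), ALDH5A1 (3.33) and ALDH6A1 (3.04) were below it. Of the 9 genes, 5 passed the filter, all with differences below 0 and 0 of them past the rule of size, with a median of -0.30. Over all 13241 genes that passed, 49.6% had a difference above 0, with a median of -0.0032, and 2.39% were called higher and 1.36% lower. Whether these 5 genes differ from that share was not tested. ALDH1L2, the mitochondrial enzyme of folate metabolism, was the highest at 8.93 FPKM with DMSO and 5.37 FPKM with the inhibitor, giving a ratio of 0.602 (0.559 to 0.647). ALDH5A1, which clears succinic semialdehyde, had a ratio of 0.769 (0.680 to 0.869), and ALDH6A1, of valine breakdown, one of 0.710 (0.629 to 0.801). The intervals of ALDH4A1 (0.8 to 1.12), which acts on the proline breakdown product, and of ALDH16A1 (0.856 to 1.13) spanned 1. Exons of AL080251.1 overlap 41.1% of the exon length of ALDH4A1. Exons of other genes overlap 10.5% for ALDH16A1, 10% for ALDH6A1, 4.33% for ALDH5A1 and 1.7% for ALDH1L2. ALDH1A2, ALDH1L1, ALDH3B2 and ALDH8A1 had at most 4 reads in either library, and ALDH8A1 had 0 in DMSO.

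Genes of the pathways around the members were taken from 7 lists, which hold enzymes as well as receptors, carriers and AHR with its targets. Of 60 listed genes in the table, 37 passed the filter, and 0 passed the rule of size. Over all 13241 genes that passed, 2.39% were called higher and 1.36% lower, so few or none of 37 would be called at that share. In the retinoid list 12 of 20 genes passed the filter, with a median log2 difference of -0.09. RDH10, which makes retinal from retinol, stood at 16.2 and 13.0 FPKM, RDH11 at 15.5 and 18.5 FPKM, and DHRS3, which turns retinal back to retinol, at 14.6 and 12.8 FPKM. CRABP2, which carries retinoic acid to its receptors, had the largest difference of the list, 0.89, on 16 and 50 reads. Its FPKM ratio was 3.20 (1.79 to 6.02), which the pseudocount of 1 keeps under the rule of size at these low values. With a pseudocount of 0.1 or 0.5 CRABP2 passed that rule. CYP26B1, which degrades retinoic acid, stood at 6.79 and 6.78 FPKM.

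Alcohol dehydrogenases as a family supply many of the aldehydes. Of 7 listed, only ADH5 passed the filter, with a ratio of 1.29 (1.22 to 1.37). The other 6 had at most 14 reads in either library. Among 7 proline and glutamate genes that passed, the median was 0.20. GLUD1, which interconverts glutamate and ketoglutarate, stood at 46.3 and 48.7 FPKM, PYCR1, which completes proline synthesis, at 47.7 and 37.9 FPKM, and OAT, which links ornithine to the product of ALDH18A1, at 14.8 and 24.4 FPKM. Of the lysine breakdown genes 4 of 6 passed, with a median of -0.06, and DHTKD1 was the highest at 22.1 and 20.7 FPKM, before PHYKPL (3.96 and 4.32) and AADAT (4.21 and 2.85). AASS, the first enzyme of one route of that breakdown, had 6 and 3 reads. The list for carnitine synthesis had a median of 0.25 over 3 genes that passed. SHMT2 stood at 51.9 and 60.8 FPKM and SHMT1 at 8.31 and 11.5 FPKM, and whether they act in that route in these cells was not tested. TMLHE, the first enzyme of the route, stood at 1.69 and 2.21 FPKM. BBOX1, the last enzyme of that synthesis, had 0 reads in both libraries.

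ALDH3A1 is a known target of AHR, so genes of that receptor were listed too. CYP1A1, the classical target, had 0 reads in DMSO and 1 in JNJ-7706621, and CYP1A2 had 0 in both. CYP1B1 stood at 39.8 and 39.6 FPKM, ARNT, the partner of AHR on DNA, at 6.87 and 6.23 FPKM, AHR at 5.55 and 4.74 FPKM and TIPARP at 2.31 and 3.82 FPKM. NQO1, a target of AHR and NRF2, stood at 606 and 690 FPKM, giving a ratio of 1.14 (1.12 to 1.15). The list had a median of -0.01 over 5 genes that passed. The genes of sphingolipid and fatty aldehyde metabolism, around ALDH3A2, had a median of -0.12 over 5, with SGPP1 at 19.3 and 19.8 FPKM and SGPL1, which releases a fatty aldehyde from sphingosine phosphate, at 13.4 and 12.3 FPKM. FAR1, which makes fatty alcohols, stood at 7.91 and 7.21 FPKM.

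**Figure D4:**
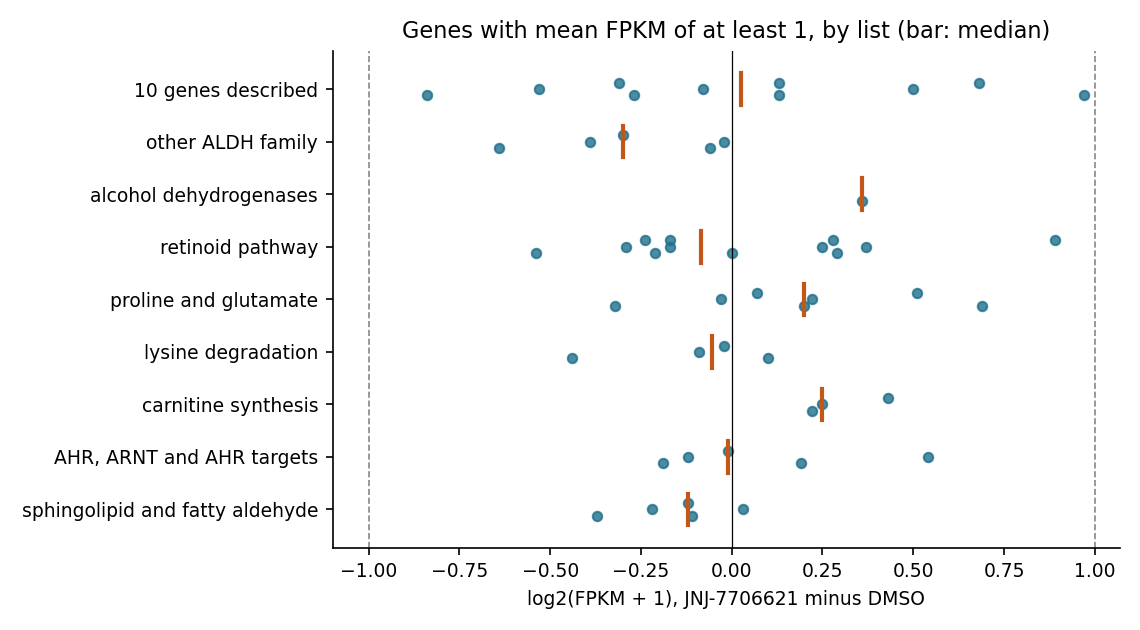
Difference in log2(FPKM + 1), JNJ-7706621 minus DMSO, of genes with a mean of at least 1 FPKM, with 1 row for each list, 1 point for each gene and a bar at the median. All points lie inside the dashed lines at -1 and 1, and the row of the 10 genes described runs from -0.84 to 0.97.

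The series concerns mRNA decay through AUF1, a protein that binds AU-rich elements, so the longest annotated 3' UTR of each member was searched for their letters. The heptamer UAUUUAU was found in 3 of 10 members, ALDH2 with 3, and ALDH1A3 and ALDH18A1 with 1 each. It was found in 34.8% of the 10144 genes with such a 3' UTR that passed the filter. ALDH3A1, with a 3' UTR of 237 bases, and ALDH3B1, with 1337 bases, held 0 copies of the pentamer AUUUA. ALDH2, with 7954 bases, held 15 and ALDH1A1, with 546 bases, held 2. ALDH1A3 and ALDH7A1 held 4 each, ALDH1B1, ALDH3A2 and ALDH18A1 held 2 each, and ALDH9A1 held 1. The pentamer was not counted over all genes, and a link between these letters and the differences was not tested. Neither binding nor decay was measured in these libraries.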

How the data were processed

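Total RNA of 2 cultures, 1 per group by the treatment labels, was sequenced. The authors deposited 1 table of FPKM values per gene, per the file headers, and 2 further columns were not used, because their names, a second control and a second JNJ column, match no sample described for this work. The submitters' processing notes name hg38 and edgeR without role or version. The aligner, counter, annotation and strand setting were not given in the sources used here.

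Library totals were taken as the most frequent value of 1 read. Reads were the whole numbers, within 0.0001, given by the exon length nearest to that of GENCODE 29 (0.25 to 4 times). They were recovered for 27805 of 28014 genes and made up 99.7% of each total. Ratio intervals are Clopper-Pearson, level intervals exact Poisson, both at 95%. They cover counting error only: without molecular identifiers, PCR copies of 1 molecule cannot be told from separate molecules. The depth behind a gene is its reads in each library. Calculations used Python 3.11.15, numpy 2.4.6 and scipy 1.17.1 and were tested on simulated data. The simulated totals were found from the lengths that made the values, and the noise was counting noise alone. The simulation therefore cannot test whether the GENCODE 29 lengths suit the deposited values, or the spread between cultures.

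A gene entered with a mean of at least 1 FPKM and was called at a difference of 1 or more in log2(FPKM + 1). The pseudocount of 1 understates differences of low genes. Pseudocounts of 0.1 and 0.5, no filter, rescaling to a sum of 1000000 and centring were tried. Named are all family genes, the markers, and of each list the up to 3 highest and any past the rule. CRABP2, CYP26B1, AASS, BBOX1, AHR, TIPARP, CYP1A1 and CYP1A2 were named after their values were seen. The members and lists were chosen with earlier results of these data known.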

Additional observations from a re-analysis of the deposited data

How the results depend on the processing

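The count of members past 2-fold was 0 under all 5 alternative settings, and the median of the members ran from 0.01 to 0.03. Each member kept the sign of its difference in all 50 recalculations, with ALDH3A1 from 0.96 to 0.98 and ALDH3B1 from -0.87 to -0.84. A change of pseudocount or filter cannot alter a sign, and centring took away only the median over all genes, -0.0032. The kept signs are therefore no measure of stability. The largest move was 0.16, for ALDH1A3, whose difference reached 0.66 with a pseudocount of 0.1. The count of other pathway genes past 2-fold went from 0 to 1 (CRABP2, higher) with a pseudocount of 0.1, with one of 0.5 and after rescaling to a sum of 1000000. Over all genes, the counts of 316 higher and 180 lower became 608 and 409 with a pseudocount of 0.1, 462 and 274 with one of 0.5, and 714 and 478 after rescaling, which lowers the weight of the pseudocount and the filter. With the second control and JNJ columns not used, each group has 1 library and no replicate could be left out. No paired analysis was possible because each group has 1 library among the columns used.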

Other observations

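The neighbours of ALDH3A1 and ALDH3A2 on chromosome 17, chosen after the values of this pair were seen, also differed in sign. Within 100000 bases of the pair lie 3 other protein-coding genes. SLC47A1 (19495385 to 19579034), a transporter of organic cations and the gene before ALDH3A2, stood at 1.11 FPKM with DMSO and 2.49 FPKM with the inhibitor, giving a ratio of 2.25 (1.85 to 2.75) on 148 and 325 reads. SLC47A2 (19678288 to 19718979), a related transporter that lies between the pair, had 13 and 5 reads, a ratio of 0.394 (0.11 to 1.18). ULK2 (19770829 to 19867936), an autophagy kinase and the gene after ALDH3A1, stood at 2.47 and 1.23 FPKM, giving a ratio of 0.497 (0.429 to 0.575). At these low values the log2 differences of SLC47A1 and ULK2 were 0.73 and -0.64, under the rule of size. ALDH7A1P1, a processed pseudogene of ALDH7A1 on chromosome 5, had 9 reads in DMSO and 21 in JNJ-7706621, against 2564 and 2776 for its parent gene.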
